A study of Mus musculus with 4 samples.

Results

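Genes of neuroblasts and early neurons were compared between PDGF-B-driven mouse gliomas that differed in onset and grade. The set held 10 genes, Dcx, Dclk1, Tubb3, Stmn2, Sox11, Sox4, Elavl3, Elavl4, Cd24a and Igfbpl1, given by name. All 10 were measured, each by a single probe set that names no other gene, among 19937 genes with such a probe set on the array. Every tumour came from a C57/Bl6 mouse whose brain tumour was started by a retrovirus carrying PDGF-B and EGFP, given to the embryo on embryonic day 14. Cells positive for EGFP were taken by flow sorting before RNA extraction. The early-onset, low-grade group held 2 samples, each a pool of cells from 2 tumours (pool 1 and pool 2). The late-onset, high-grade group held 2 samples of 1 tumour each (tumour 1 and tumour 2). All 4 samples carried the same PDGF-B/EGFP overexpression, no sample without a tumour was compared, and the ages at collection are not given in the sources used here. Onset, grade and pooling differed together between the groups, so they cannot be told apart. The groups held different tumours, and no tumour was followed over time. Below, rose and fell mean higher and lower in late-onset than in early-onset cells.

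Neuroblasts are the migrating precursors of neurons, and many of their genes stay on while a young neuron grows its first processes. Doublecortin (Dcx) and its kinase relative Dclk1 bind and stabilise microtubules, Tubb3 is the beta tubulin of neurons, and stathmin 2 (Stmn2) acts on microtubule dynamics in growth cones. Sox4 and Sox11 are SoxC transcription factors that act in newborn neurons, where Tubb3 and Dcx are among their reported targets. Elavl3 and Elavl4 encode neuronal RNA-binding proteins of the Hu family. Cd24a encodes a small glycosylated surface protein of neuroblasts and of several blood cells, and Igfbpl1 a secreted protein related to the IGF-binding proteins. Several of these genes, among them Dcx, Sox4 and Sox11, are also active in oligodendrocyte progenitors and in gliomas.

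The promoter sequences below are shown because Sox factors and proneural factors bind short core motifs. All 7 members with a sequence had a Sox or E-box match, so matched members could not be compared with unmatched ones. Late-onset minus early-onset differences of the 7 had both signs. Among the 7 only Tubb3, Sox11 and Dcx passed the test given below. The sequences are RefSeq sequences of build GRCm38.p6, held for 7 of the 10 members in 12 windows of 300 bases, from 250 bases before to 50 after a start site. No sequence is given for Cd24a, Stmn2 and Igfbpl1. Tubb3 (chr8:123411303-123411552, plus strand), Sox11 (chr12:27342719-27342968, minus strand) and Sox4 (chr13:28953700-28953949, minus strand) are printed 5′ to 3′ in the direction of the gene over the 250 bases before the start site. For Dcx (chrX:143933115-143933144, minus strand, its second start site), Elavl3 (chr9:22052048-22052077, minus strand) and Elavl4 (chr4:110287553-110287582, minus strand, its second start site) 30 bases around a match are printed. Capitals mark the matches.
Tubb3: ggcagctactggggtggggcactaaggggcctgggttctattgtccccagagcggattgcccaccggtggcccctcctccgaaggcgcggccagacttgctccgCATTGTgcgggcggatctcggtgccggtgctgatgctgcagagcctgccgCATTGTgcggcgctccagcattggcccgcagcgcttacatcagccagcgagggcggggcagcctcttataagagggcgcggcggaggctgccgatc
Sox11: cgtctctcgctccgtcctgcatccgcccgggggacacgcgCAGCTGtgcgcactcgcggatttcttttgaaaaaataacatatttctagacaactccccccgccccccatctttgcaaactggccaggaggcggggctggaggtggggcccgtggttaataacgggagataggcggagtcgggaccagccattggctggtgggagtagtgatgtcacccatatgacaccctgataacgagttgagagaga
Sox4: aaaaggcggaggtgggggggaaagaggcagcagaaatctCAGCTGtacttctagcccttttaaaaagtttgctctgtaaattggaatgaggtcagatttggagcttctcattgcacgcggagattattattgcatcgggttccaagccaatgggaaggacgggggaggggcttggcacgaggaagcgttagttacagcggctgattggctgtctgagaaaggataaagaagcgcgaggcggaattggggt
Dcx: ggagctcagacaACAAAGgcatagagagat
Elavl3: gccggcgctggCAGCTGcctctataaaggg
Elavl4: gtctggcttCAGCTGaCAGATGgtcccata

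The letters searched, on both strands, were the Sox cores ACAAAG and ACAATG, the E-boxes CAGCTG and CAGATG, and TTCAGCACC, the left part of the site of the neuronal repressor REST. Tubb3 held ACAATG as its reverse complement CATTGT at 2 places, starting 146 and 96 bases before the start site, and both copies were followed by gcgg. Dcx held ACAAAG at 8 bases before its second start site. Dclk1 and Elavl4 also held ACAATG, in windows not printed here. ACAAAG was in 18.7% and ACAATG in 12.6% of all 32851 promoter windows of this length. Counted by gene, the shares were 21.0% and 14.3%. CAGCTG stood at nearly the same place in Sox11 (210 bases before the start site) and Sox4 (211 bases before it), and was also in Elavl3 and Elavl4. It was in 18.3% of all genes and 16.3% of all windows. Elavl4 held CAGATG 1 base after its CAGCTG, and 17.2% of all windows and 19.2% of all genes held CAGATG. TTCAGCACC was in 0 of the 12 member windows, against 0.371% of all windows. At so low a share, 0 in 12 windows cannot tell whether these genes lack REST sites. These matches describe letters only, and binding was not measured.

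The members did not move as one group. Tubb3, Sox11 and Cd24a rose in late-onset cells, Dcx fell, and the other 6 did not pass the test (limma, adjusted p under 0.05 over all genes). The 4 calls among 10 members compare with 14.7% of all genes called, of which 6.59% of genes were higher and 8.12% lower in late-onset cells. The balance of directions over all genes turned with the scaling between arrays, from 1313 higher and 1618 lower to 1658 and 1423 after each array's median was subtracted, and to 1078 and 1773 after cyclic loess. The median change of the 10 members was 0.22 (late-onset minus early-onset, log2) against -0.01 over all genes, with 5 members above and 5 below 0. In each of the 10 members the values of the late tumours lay wholly above or wholly below those of the early pools, as they did in 58.9% of all genes. Levels below are the deposited log2 values, and a difference of 1 on that scale is a doubling.

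**Figure D1:**
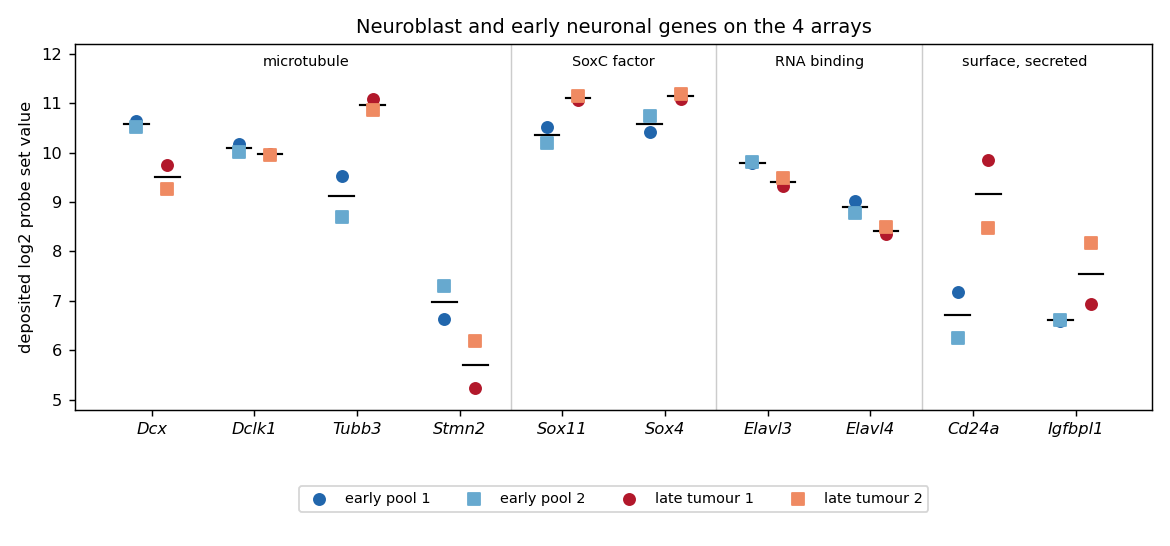
Deposited log2 value of each of the 10 genes on the 4 arrays, by role; circles and squares are the single samples, black bars the mean of each group (n = 2). The late tumours lie above the early pools for Tubb3, Sox11, Sox4, Cd24a and Igfbpl1 and below them for the other 5 genes, with the narrowest gap for Dclk1.

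Among the microtubule genes, Tubb3 and Dcx went opposite ways. Tubb3 (probe set 10576332) stood at 9.53 and 8.70 in pools 1 and 2 and at 11.09 and 10.86 in tumours 1 and 2. Both tumours were above both pools by at least 1.34, a gap wider than the spread within either group. Its late-onset level was 3.63-fold higher (log2 difference 1.86, SE 0.28, 95% interval 1.15 to 2.57, adjusted p 0.0152). It was the one member called under each of the 15 alternative settings tried for it, from 1.45 without pool 2 to 2.27 without pool 1.

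Dcx (probe set 10607156) stood at 10.64 and 10.53 in the pools and at 9.75 and 9.26 in tumours 1 and 2. The pools were close to each other and both tumours were lower, tumour 2 the lower of them. The gene fell 2.11-fold (log2 difference -1.08, SE 0.18, 95% interval -1.54 to -0.62, adjusted p 0.0203). Without pool 1 the difference was -1.02 (adjusted p 0.106) and without pool 2 it was -1.14 (0.0972), so the call needed both pools, and it was -0.84 without tumour 2.

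Dclk1, which shares the microtubule-binding domains of doublecortin, differed little. It stood at 10.18 and 10.01 in the pools and at 9.98 and 9.96 in the tumours. Its difference was -0.13 (95% interval -0.40 to 0.14, adjusted p 0.497), and pool 2 and both tumours were close together. Stmn2 stood at 6.64 and 7.29 in the pools and at 5.24 and 6.19 in tumours 1 and 2, so that within each group the samples lay far apart. Its difference of -1.26 (95% interval -2.18 to -0.33) did not pass (adjusted p 0.0841). It passed without tumour 2, at -1.73 (adjusted p 0.03), and was -0.78 without tumour 1.

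Both SoxC factors were higher in late-onset cells, and one of them passed. Sox11 (probe set 10399725) stood at 10.51 and 10.20 in the pools and at 11.07 and 11.14 in the tumours. The tumours were nearly equal and the pools were further apart. Sox11 rose 1.68-fold (log2 difference 0.75, SE 0.14, 95% interval 0.40 to 1.10, adjusted p 0.0251). The call was lost without pool 2 (0.59, adjusted p 0.119), without tumour 1 (0.78, 0.0533) and without tumour 2 (0.72, 0.0719).

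Sox4 stood at 10.42 and 10.74 in the pools and at 11.08 and 11.19 in the tumours, with the pools in the opposite order to Sox11. Its difference was 0.56 (SE 0.14, 95% interval 0.21 to 0.92, adjusted p 0.0571), just short of the threshold. It passed with an intensity trend in the variance model (adjusted p 0.0436) and after each array's median was subtracted (0.62, 0.0456). Whether Sox4 and Sox11 differed from each other in their change was not tested, and their intervals overlapped.

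The Hu family genes lay lower in late-onset cells by small amounts that did not pass. Elavl3 stood at 9.79 and 9.81 in the pools and at 9.32 and 9.49 in the tumours. Its difference was -0.40 (95% interval -0.67 to -0.12, adjusted p 0.0709), and it passed after quantile normalization (-0.46, 0.0429) and after cyclic loess (-0.48, 0.0416). Elavl4 stood at 9.02 and 8.78 in the pools and at 8.36 and 8.49 in the tumours, a difference of -0.47 (95% interval -0.79 to -0.16, adjusted p 0.0668), and passed in 0 of 15 alternative settings. The groups did not overlap for either gene.

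Cd24a had the highest change of the set and the widest spread. Cd24a (probe set 10362896) stood at 7.18 and 6.25 in pools 1 and 2 and at 9.85 and 8.47 in tumours 1 and 2. Both tumours were above both pools by at least 1.29, and tumour 1 was above tumour 2 by 1.37. Cd24a rose 5.44-fold, with a 95% interval from 2.19-fold to 13.5-fold (log2 difference 2.44, SE 0.52, adjusted p 0.0377). The call was lost without pool 1 (2.91, adjusted p 0.0753), pool 2 (1.98, 0.172) or tumour 1 (1.76, 0.053), and with robust eBayes (0.0703).

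Igfbpl1 was high in 1 tumour. It stood at 6.60 and 6.61 in the pools, at 6.94 in tumour 1 and at 8.16 in tumour 2. Tumour 2 therefore set most of the difference of 0.94 (95% interval -0.04 to 1.93, adjusted p 0.18). Without tumour 1 the difference was 1.56 (adjusted p 0.00567), with the lone tumour assumed to vary like the pools, and without tumour 2 it was 0.33 (0.161). All 12 measured markers of vessels and pericytes were likewise higher in tumour 2 than in tumour 1, as were 10066 of all 19937 genes. So were 11 of 13 astrocyte, 14 of 17 microglia and 9 of 11 oligodendrocyte markers, but only 5 of 16 oligodendrocyte progenitor markers. Neural lists leaned toward tumour 2 as well: 24 of 34 neurite and migration genes, 22 of 32 neurogenic factors and 14 of 22 mature neuron markers. The same held for 9 of 12 stem and radial glial genes, but for only 1 of 8 REST complex genes. The median gap was 0.77 for the vascular and 0.83 for the oligodendrocyte markers. Of the vascular markers, the smooth muscle actin gene Acta2 (2.88), the pericyte receptor gene Pdgfrb (1.90) and the endothelial cadherin gene Cdh5 (1.82) had the widest gaps. These genes were named after their values were seen. Between the pools, 11 of the 12 vascular markers were higher in pool 1, at a median gap of 0.43. The part of any of these cells in the Igfbpl1 values was not tested.

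**Figure D2:**
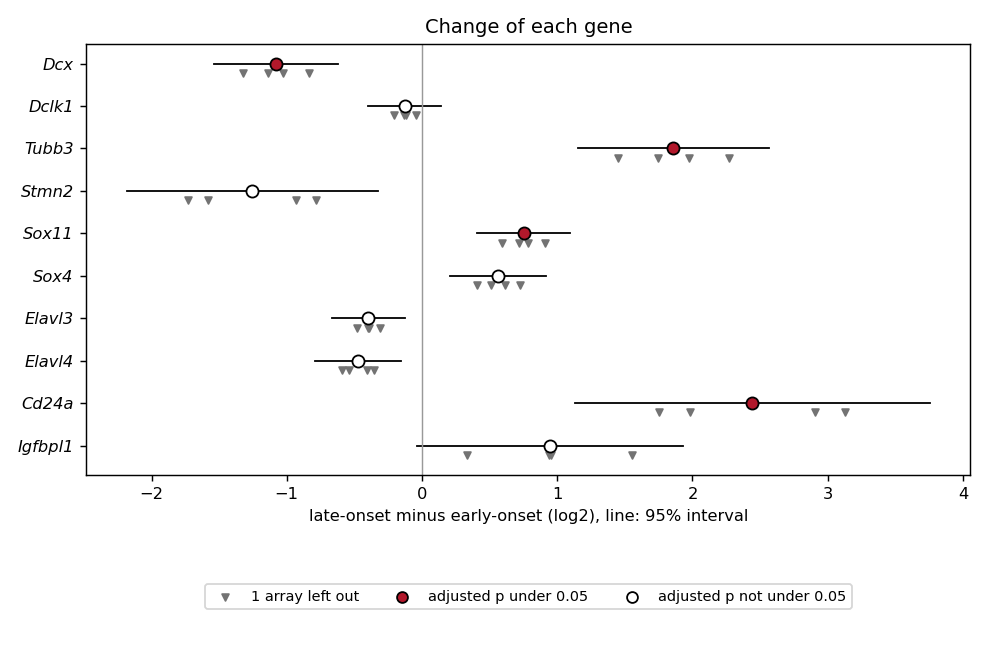
Late-onset minus early-onset difference of each gene (log2, x axis) with its 95% interval from limma, not adjusted for the number of genes; grey triangles give the difference with 1 of the 4 arrays left out. Red points passed an adjusted p of 0.05: Tubb3, Sox11 and Cd24a above 0 and Dcx below it, and no triangle crosses 0.

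The families of the members were set beside them to see whether close relatives moved likewise. Of 13 measured relatives, 3 were called higher and 1 lower, and without pool 1 or without pool 2 the count was 0 in each direction (adjusted p 0.0712 to 0.124 for the 4). The Stmn1 call was also lost without tumour 1 (0.0511). Among the beta tubulins, Tubb6 rose by 1.11 and the widely expressed Tubb5 by 0.72 (adjusted p 0.014 and 0.0144). Tubb2a (0.47, adjusted p 0.134), Tubb2b (0.34, 0.137) and Tubb4a (0.27, 0.47) did not pass. Tubb2a passed without tumour 1 (0.70, adjusted p 0.032) and was 0.25 without tumour 2, and Tubb2b was 0.22 without pool 2. All 5 measured relatives of Tubb3 thus had positive differences, while Tubb4a was at -0.00051 without tumour 2. Tubulin genes are alike in sequence, and how far a probe set also reads its relatives was not tested.

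The stathmins divided. Stmn1, the member of the family linked to dividing cells, rose by 0.67 (adjusted p 0.0216), and Stmn4, which is neural, fell by 1.00 (0.0179). Stmn3, also neural, stood at 10.62 in both pools and at 9.99 and 10.35 in the tumours, a difference of -0.45 (adjusted p 0.109). It passed without tumour 2 (-0.63, adjusted p 0.0402) and was -0.27 without tumour 1. A second, dim probe set of Stmn3 stood at 0.08 (adjusted p 0.846). Stmn2, Stmn3 and Stmn4 were thus on the lower side and Stmn1 on the higher side, and with all 4 samples only the differences of Stmn1 and Stmn4 passed among these 3 relatives.

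The remaining relatives did not pass. The doublecortin kinases Dclk2 (0.07, 95% interval -0.17 to 0.31) and Dclk3 (-0.05, -0.40 to 0.30) lay around 0 and changed sign with the scaling between arrays. Sox12, the third SoxC gene, stood at 0.03 (-0.23 to 0.29), and its interval did not reach the change of Sox11. Elavl1, the family member active in most cells, stood at 0.23 (adjusted p 0.277) and Elavl2 at 0.15 (0.4).

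**Figure D3:**
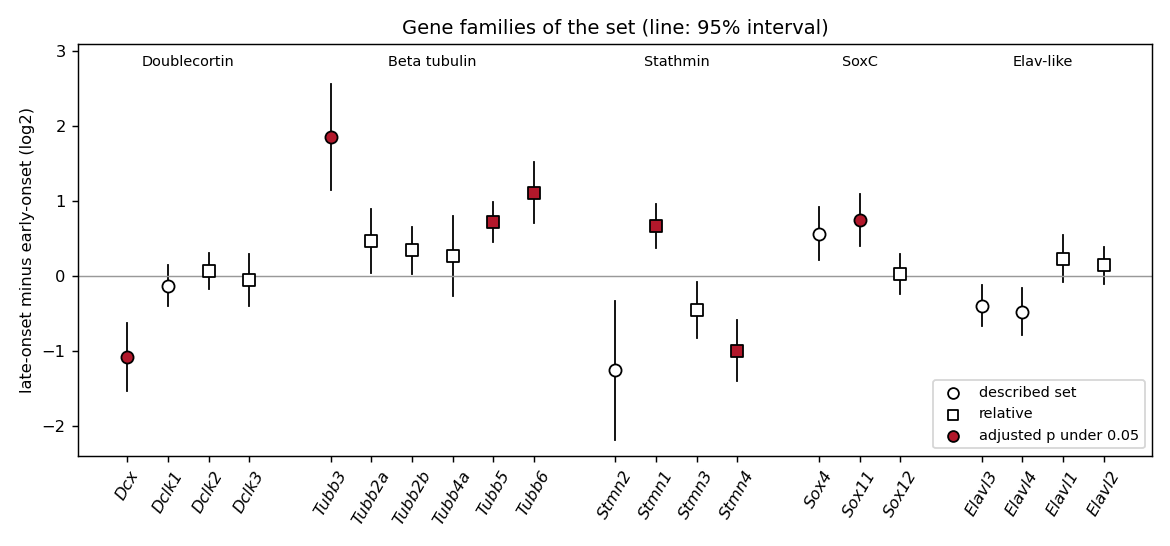
Late-onset minus early-onset difference (log2, y axis) with its 95% interval for the members (circles) and their measured relatives (squares), grouped by family; red marks an adjusted p under 0.05. Dcx lies below its relatives Dclk1, Dclk2 and Dclk3, the beta tubulins lie above 0, and the stathmins lie on both sides.

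Other genes of young neurons also went both ways. Of 34 cytoskeletal, adhesion and migration genes, 9 fell and 3 rose, at a median of -0.19, with 22 differences below 0 and 12 above it. Whether this balance differed from that of the members was not tested. Ina, an intermediate filament gene of young neurons, fell by 1.30, the cadherin gene Celsr3 by 1.05 and the axonal adhesion gene Cntn2 by 1.00. Rnd3, a small GTPase gene of migrating neurons, rose by 1.39. Without pool 1 the calls of Ina and Cntn2 were lost (adjusted p 0.103 and 0.0635), and without pool 2 that of Ina (0.116). Map1b, which encodes a microtubule-associated protein of growing axons and was chosen after its value was seen, rose by 0.98 (adjusted p 0.00608). Without pool 1 the counts were 2 lower and 2 higher, and without pool 2 they were 2 lower and 3 higher. After each array's median was subtracted, 6 fell and 4 rose, and with an intensity trend 9 fell and 6 rose.

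Few transcription factors of neuroblasts and newborn neurons passed the test. Of 32 measured, 3 fell and 0 rose, not far from the 14.7% of all genes called, at a median of -0.05 (0.01 after each array's median was subtracted). The neuronal repressor gene Scrt1 fell by 0.96 (adjusted p 0.00587), and the zinc finger genes Myt1l and Myt1 fell by 0.93 (0.00928) and 0.61 (0.0346). Myt1l and Myt1 lost the call without either pool (adjusted p 0.0574 to 0.168), and Myt1 also without tumour 2 (0.0778). The largest difference of the list was that of Ebf1, a factor of early neurons named after its values were seen. It stood at 6.63 and 5.75 in the pools and at 4.90 and 5.17 in the tumours, and its -1.16 did not pass (adjusted p 0.0624) although the groups did not overlap. Small differences, also named after they were seen, were those of Neurod1, which drives neuronal differentiation (-0.045), Dlx2, a factor of forebrain neuroblasts (0.10), and Meis2 (0.062). Of the 32 factors, 23 lay above and 9 below the lower quartile of all gene means (5.52), under which 4985 of the 19937 genes lay. Neurod1 was among the 9, at a mean of 3.76 in the early-onset and 3.72 in the late-onset group. At so dim a level its small difference cannot show that the gene was steady.

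Several mature neuron markers fell. Of 22 measured, 10 fell and 1 rose, at a median of -0.46. The neuronal calcium sensor gene Vsnl1 fell by 2.54 (adjusted p 0.0019), and the synaptic vesicle fusion genes Snap25 and Syt1 fell by 1.85 (0.00899) and 1.14 (0.0451). The neuropeptide gene Npy rose by 1.03 (0.0302). The Snap25 call was lost without pool 2 (adjusted p 0.0568), the Syt1 call without either pool or tumour 1 (0.0582 to 0.175) and after quantile normalization (0.0567) or median subtraction (0.0508), and the Npy call without either pool or tumour 2 (0.0562 to 0.143). Without pool 1 the count was 3 lower and 0 higher, and without pool 2 it was 1 lower and 0 higher. Without tumour 1 it was 5 lower and 2 higher, and without tumour 2 it was 7 lower and 0 higher. After each array's median was subtracted it was 6 lower and 1 higher. The summed linear level of the 22 markers ran from 5802 to 7716 in the pools and from 3162 to 4014 in the tumours. That of the 10 members ran from 7467 to 8063 and from 9855 to 10411. Such a sum is weighted to the brightest genes, and the median level of the members hardly differed (9.46 early-onset, 9.45 late-onset, log2).

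Genes of the REST complex, which keeps many neuronal genes silent in other cells, lay higher. All 8 had positive differences, at a median of 0.49, and 4 of them rose. Rcor2, a corepressor subunit of neural progenitors, stood at 6.48 and 7.06 in the pools and at 9.15 and 8.87 in the tumours, a rise of 2.24 (SE 0.22, adjusted p 0.00576). Rcor3 rose by 0.83, and the histone deacetylase genes Hdac1 and Hdac2 by 0.58 and 0.55. Rest itself, named for its role and not by the size of its change, stood at 0.33 (adjusted p 0.163). Without pool 1 or without pool 2 the count was 1, Rcor2, and without tumour 1 it was 2. With the replicate block it was also 1, Rcor2, as Rcor3, Hdac1 and Hdac2 missed the threshold (adjusted p 0.0535 to 0.068), and after each array's median was subtracted it was 6. The Rcor2 call held in all 15 alternative settings, from 1.95 without pool 1 to 2.53 without pool 2.

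Markers of other cells moved with the groups, and their part in the results above was not tested. Of 17 microglia and macrophage markers, 16 fell, and all 17 were lower in both tumours, at a median of -3.95. The 4 with the largest falls were Ly86 (-4.70), Fcrls (-4.64), Mpeg1 (-4.47) and the integrin gene Itgam (-4.23), and the summed linear level was 35684 to 41465 in the pools and 2097 to 3177 in the tumours. Of 13 astrocyte markers, 8 fell and 0 rose (5 without pool 1 and 3 without pool 2), led by the transporter genes Slc4a4 (-2.28), Slc7a10 (-1.97) and Slc1a2 (-1.93) and by Ntsr2 (-1.44). Their summed level was 12704 to 15346 in the pools and 6839 to 7484 in the tumours. In sorted bulk samples, fewer cells of a type and less RNA per cell cannot be told apart.

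Of 16 oligodendrocyte progenitor markers, 15 had negative differences, at a median of -0.44, and 5 fell. The largest falls were those of Tmem100 (-1.35), C1ql1 (-0.84), Cspg5 (-0.74) and Cacng4 (-0.66), and without either pool Tmem100 alone kept its call. With the replicate block 3 fell, and with an intensity trend or after cyclic loess 9 fell. Sox10 (-0.00093) and Olig2 (-0.19), factors of this lineage that were named after their values were seen, did not pass. Markers of mature oligodendrocytes went both ways, with 2 of 11 higher and 2 lower. Mobp fell by 2.62 and the myelin gene Mbp by 1.45, while the tight junction gene Cldn11 rose by 2.07 and the myelination factor gene Myrf by 1.39. Without either pool the falls of Mobp and Mbp did not pass (adjusted p 0.061 to 0.137), without tumour 1 the rise of Myrf did not (0.0541), and without tumour 2 the count of falls was 5. The summed level of these 11 markers was 11328 to 14800 in the pools and 12026 to 13825 in the tumours.

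Of 12 vascular and pericyte markers, 2 fell and 0 rose, the transporter gene Slco1c1 by 2.14 and Rgs5 by 0.56. Slco1c1 did not pass without pool 2 (adjusted p 0.0516), Rgs5 did not pass with any 1 sample left out (0.0533 to 0.172), and without tumour 1 the count was 1 lower and 2 higher. The summed level was 1215 to 1574 in the pools, 860 in tumour 1 and 2579 in tumour 2. Of 12 genes of neural stem and radial glial cells, 3 rose and 2 fell, or 1 and 0 without either pool. Among them were the intermediate filament genes Nes (1.34) and Vim (1.00), Prom1 (0.64) and Pax6 (-0.55). Each lost its call without at least 1 of the pools. Prom1, dim in the pools (mean 5.60), lay at the threshold (adjusted p 0.049996). Its call was lost in 7 of 15 alternative settings, and that of Pax6 in 5.

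**Figure D4:**
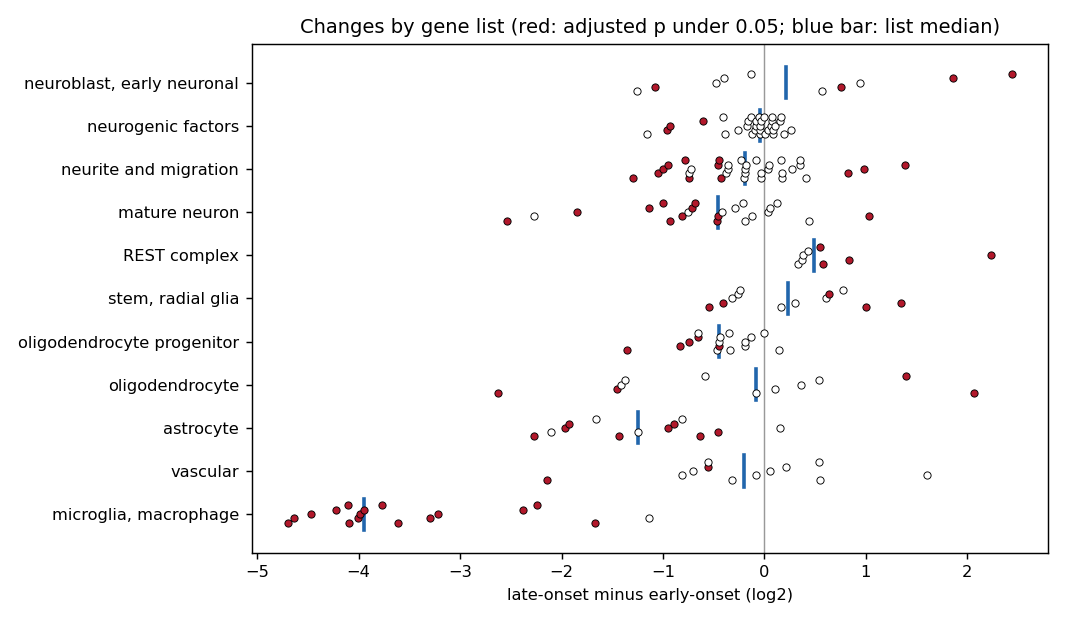
Late-onset minus early-onset difference (log2, x axis) of every measured gene of 11 lists; red points passed an adjusted p of 0.05 and blue bars mark list medians. The described genes spread from -1.26 to 2.44, the neurogenic factors run from -1.16 to 0.26 with a median of -0.05, and the microglia and macrophage list has its median at -3.95.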

How the data were processed

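RNA of EGFP-sorted glioma cells was hybridised to 4 Affymetrix arrays, 2 per group, per the labels' protocols. Values on a log2 scale, 1 for each probe set, were deposited by the authors. The submitters' processing notes name RMA and affy (version 3.4.2) but no parameters. RMA scales arrays alike, so a shift shared by most genes is not visible, and changes of dim genes are understated. Precision is limited by the number of arrays. Replicates are biological, per the labels.

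Of 34760 probe sets, 21640 had 1 gene symbol, 1321 several and 11799 none, by the platform annotation; 21553 matched a RefSeq gene of GRCm38.p6. Only single-gene probe sets were used, with the highest mean kept per gene (19937 genes). Late-onset and early-onset groups were fitted in limma (version 3.58.1, R 4.3.3; lmFit, eBayes, 3.27 prior degrees of freedom), and p-values were Benjamini-Hochberg adjusted over all genes; every adjusted p comes from limma. The threshold was 0.05. The procedure was tested on simulated data. Summed levels add 2 to the power of the log2 values.

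The members and lists were chosen with earlier results of these data known. Named were all members, all measured relatives, and of every other list up to 4 called genes by size of change; genes outside this rule are marked as such. Lists held 198 genes, 190 measured. Between samples of a group r was 0.988 or more over all probe sets, and between groups 0.972 to 0.974. Alternatives covered the variance model, scaling, a filter on dim genes, the choice of probe set, array weights, a replicate block and each sample left out. With 1 sample left out, the lone sample of its group was assumed to vary like the other group. A call lost or gained there can thus come from the spread and not from the difference.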

Additional observations from a re-analysis of the deposited data

How the results depend on the processing

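No member changed sign in any of the 15 alternative settings. The count of members called higher was 3 and ranged from 1 to 2 with 1 sample left out (1 without pool 2); it was 4 with an intensity trend or after median subtraction and 2 with robust eBayes. The count called lower was 1 and ranged from 0 to 2 with 1 sample left out; it was 2 with the replicate block, and also after cyclic loess or quantile normalization. With the replicate number as a block, 2 members were called higher and 2 lower, since Sox11 no longer passed (0.75, adjusted p 0.0585) and Stmn2 did (-1.26, 0.0236). Same-numbered samples shared only a number: the deviations of pools and tumours from their group means correlated at -0.04 across genes. Over all genes 2931 were called, against 943 without pool 1, 850 without pool 2 and 1833 with the block. Of 41 called genes named beside the members under the naming rule above, 14 kept their call throughout and 0 changed sign. Leaving out a pool ended the call of 26, leaving out a tumour that of 10, and the other settings that of 11. Relatives near 0 changed sign: Dclk2 stood at -0.041 after cyclic loess and -0.024 after quantile normalization, Dclk3 at 0.0056 after median subtraction, 0.068 without pool 1 and 0.058 without tumour 1. With 1 sample left out Dclk3 ranged from -0.17 to 0.068, Sox12 from -0.033 (without tumour 1; -0.0077 without pool 2) to 0.090, and Tubb4a from -0.00051 (without tumour 2) to 0.53. The alternatives for genes beside the members were chosen after seeing the data. The cause was not tested. Array signal limits precision most for the dimmer genes, of which Stmn2 was the dimmest member in tumour 1 (5.24).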

Other observations

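Several members differed within a group as widely as few genes did. Tumour 1 and tumour 2 were 1.37 apart for Cd24a, 1.22 for Igfbpl1 and 0.95 for Stmn2, gaps larger than in 99.4%, 99.3% and 98.6% of all genes. Tumour 1 was the higher for Cd24a, and tumour 2 for Igfbpl1 and Stmn2. The pools were 0.93 apart for Cd24a, 0.82 for Tubb3 and 0.65 for Stmn2, gaps larger than in 99.5%, 99.2% and 98.4% of all genes, whereas Elavl3 and Igfbpl1 differed by 0.01 between the pools. Pool 1 was the higher for Cd24a and Tubb3 and pool 2 for Stmn2.

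From the lowest to the highest value of Stmn2, the arrays ran tumour 1, tumour 2, pool 1 and pool 2. The same order was found in 8.1% of all genes, in 8 of 22 mature neuron markers (Snap25, Syt1, Syp, Syn1, Nefl, Nefh, Camk2a and Sst) and in 10 of 13 astrocyte markers. Also in that order were 3 of 11 oligodendrocyte, 2 of 16 oligodendrocyte progenitor, 1 of 12 vascular and 0 of 17 microglia markers. So were 8 of 34 neurite and migration genes, 3 of 32 neurogenic factors, 2 of 12 stem and radial glial genes and 0 of 8 REST complex genes. The order needs both tumours below both pools, so a list that fell can hold it more often than all genes for that alone. Among the members Elavl3 shared the order of Stmn2, with smaller steps, and Dcx had the reverse order within each group. Tubb3 and Cd24a had one order in common, lowest in pool 2 and highest in tumour 1, found in 6.37% of all genes. These orders over 4 arrays were looked at after the values were seen and carry no test.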
